A study of Mus musculus with 3 samples.

Results

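Perivascular adipocyte nuclei, the nuclei of fat cells lying around the abdominal aorta, were chosen by a marker rule applied to the measured UMIs (unique molecular identifiers, one per captured RNA molecule). Barcodes with fewer than 500 UMIs, fewer than 300 genes or 5% or more mitochondrial UMIs were dropped. A remaining barcode needed UMIs of at least 2 of the 8 genes Adipoq, Plin1, Plin4, Cidec, Lipe, Pparg, Acsl1 and Ghr, at least 1 of them among Adipoq, Plin1, Plin4 and Cidec, and fewer UMIs of the macrophage genes Mertk and Csf1r than of the 8 genes together. The rule took 2353 of 30730 filtered nuclei, 1267 of 5707 in the aneurysm library, 777 of 14001 in the smoke library and 309 of 11022 in the room air library. Most of those in the smoke and room air libraries did not group with adipocytes, and 1235 nuclei carried an adipocyte-like profile.

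The nuclei came from ApoE-/- mice, which lack apolipoprotein E, the ligand that clears remnant lipoproteins from blood. All groups ate a high-fat diet for 20 weeks and carried the same deletion on a C57Bl/6 background. One library held mice exposed to cigarette smoke that had an abdominal aortic aneurysm (aneurysm), 1 held mice exposed to cigarette smoke that had none (smoke), and 1 held mice kept in room air (room air), with an exposure of 20 weeks in each group. How many animals went into each library is not stated in the labels. Every difference between libraries therefore lacks a replicate check, no test between groups was possible, and intervals cover counting error only. Nuclei were released from slow-frozen aortae by lysis and douncing and purified on anti-nucleus beads.

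Adipocytes store triglyceride in a lipid droplet coated with perilipins and release it as fatty acids by lipolysis. White adipocytes hold a single large droplet and secrete adipokines such as leptin and resistin, whereas brown and beige adipocytes burn fatty acids in mitochondria that carry UCP1, a protein that lets protons leak across the inner membrane so that heat is released. Fat around the mouse thoracic aorta resembles brown fat, while fat around the abdominal aorta is a mixture closer to white fat.

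The libraries differed in depth. The aneurysm library held 15634797 UMIs with a median of 1443 UMIs for a filtered nucleus, the smoke library 117247048 with a median of 6225, and the room air library 73891039 with a median of 4058.5. The libraries shared 26 (aneurysm and smoke), 46 (smoke and room air) and 29 (aneurysm and room air) barcodes, of which 0, 0 and 1 met the rule in both. No doublet caller was run, so nuclei holding the RNA of more than one cell were not removed.

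The label held for the aneurysm library and not for the other two. All filtered nuclei were clustered together, on variable genes picked with library taken into account and with no other adjustment for library. This gave 28 clusters, and 2 of them consisted mainly of rule nuclei. The first was led by Retn (resistin), Trhde, Car3 (carbonic anhydrase 3, abundant in white fat), Cyp2e1 and Slc7a10, with Adipoq (adiponectin) and Cidec (a droplet fusion protein) among its top 10 genes. The second was led by A530065N20Rik, a transcript with no assigned role, followed by Ucp1, Slc27a2 and Cidea (a droplet protein of brown fat), and its top 10 genes also held Ppara and Esrrg. They are called Car3-high and Ucp1-high below. Of the rule nuclei, 990 in the aneurysm library (78.1%), 213 in the smoke library (27.4%) and 32 in the room air library (10.4%) lay in these clusters, and these are the adipocyte-like nuclei.

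Rule nuclei with many rule genes lay in the adipocyte clusters more often than those with few. The clusters were chosen by their share of rule nuclei, so this describes the members only. In the smoke library 0 of 171 rule nuclei with 2 rule genes and 0 of 242 with 3 lay in the adipocyte clusters, against 82 of 83 nuclei with 7. In the aneurysm library 12 of 175 nuclei with 2 rule genes lay there, against 259 of 261 with 6. No single number of rule genes divided the nuclei in all libraries. With 4 rule genes, 161 of 190 aneurysm, 8 of 140 smoke and 2 of 55 room air nuclei lay in the adipocyte clusters. Just inside the rule, nuclei with 2 rule genes held medians of 3, 9 and 7 UMIs of the 8 genes in the aneurysm, smoke and room air libraries. Just outside it, 54, 36 and 15 nuclei had 1 rule gene and a median of 1 UMI. Another 270 aneurysm, 7 smoke and 7 room air nuclei lay in the adipocyte clusters without meeting the rule.

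**Figure D1:**
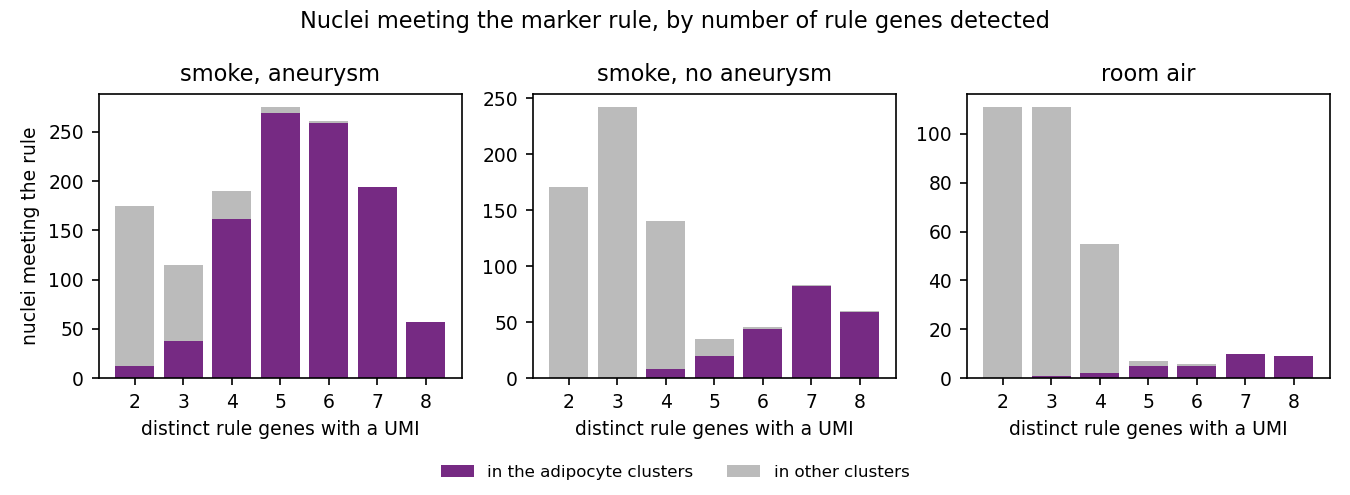
Number of nuclei meeting the marker rule (vertical axis, scaled separately for each library) by the number of rule genes with a UMI (horizontal axis), in the adipocyte clusters (purple) or in other clusters (grey). In the smoke and room air libraries nearly all nuclei with 2 or 3 rule genes are grey, and all 10 room air nuclei with 7 rule genes are purple.

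Rule nuclei outside the adipocyte clusters carried markers of other aortic cells. A nucleus was said to carry another class when it had UMIs of at least 2 of that class's markers and at least as many UMIs of them as of the 8 rule genes. This held for 193 of 277 outside nuclei in the aneurysm library, 462 of 564 in the smoke library and 231 of 277 in the room air library, against 2 of 990, 0 of 213 and 1 of 32 adipocyte-like nuclei. The contrast is partly set by that definition, since class UMIs had to match rule-gene UMIs. The median of rule-gene UMIs was 26, 99 and 37 in adipocyte-like nuclei and 4, 16 and 12 in outside nuclei. Fibroblast markers were carried by 35.4%, 53.9% and 55.6% of the outside nuclei, and smooth muscle markers by 17.7%, 37.8% and 36.5%. Plin4, which encodes a droplet coat protein, was the defining gene most often detected in them, in 62.8%, 90.6% and 94.6% of outside nuclei, whereas Adipoq was detected in 2.89%, 2.30% and 1.08%. In the adipocyte-like nuclei of the aneurysm library Plin1, a perilipin, was detected in 68.7% and Adipoq in 18.6%, at a median depth of 1634.5 UMIs, and in 3.03% and 1.26% of that library's macrophage nuclei, at a median of 1959.5 UMIs. Macrophage nuclei are filtered nuclei with UMIs of at least 3 of 8 macrophage markers, whether or not they meet the rule. Both genes belong to the rule that chose the nuclei, so these shares only describe the members. All results below refer to adipocyte-like nuclei unless rule nuclei are named. With 32 such nuclei in the room air library, under the minimum of 50 set for a comparison, its values are given beside the others without ratios.

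Macrophage, endothelial, fibroblast, smooth muscle and lymphocyte markers stood lower in the adipocyte-like nuclei than in the nuclei that did not meet the rule, in every library. The summed level of 8 macrophage markers was 187 CPM (UMIs of the gene per 1000000 UMIs) in the aneurysm library, 489 in the smoke library and 340 in the room air library, against 895, 1573 and 1317 CPM in nuclei not meeting the rule. The 7 endothelial markers summed to 136, 313 and 392 CPM, against 2229, 1302 and 1488 CPM. The 7 fibroblast markers summed to 302, 246 and 109 CPM, against 1786, 868 and 916 CPM, and the 6 smooth muscle markers to 70.6, 108 and 23.6 CPM, against 694, 380 and 325 CPM. The 7 lymphocyte markers summed to 76.5, 416 and 283 CPM, against 282, 1028 and 854 CPM. Schwann cell markers were the exception, with 5 markers summing to 167, 124 and 161 CPM in adipocyte-like nuclei and 98.7, 85.7 and 68.6 CPM in nuclei not meeting the rule, and 1, 3 and 3 of them at 0 in adipocyte-like nuclei. The 15 adipocyte markers, rule genes included, summed to 25704, 16635 and 27097 CPM in adipocyte-like nuclei. Of the macrophage markers 0, 1 and 3 were at 0 in them, and of the endothelial markers none was.

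Adipocyte-like nuclei made up 17.3% of filtered nuclei in the aneurysm library (exact 95% interval 16.4 to 18.4), 1.52% in the smoke library (1.33 to 1.74) and 0.290% in the room air library (0.199 to 0.410). The share was 11.4 times as high in the aneurysm as in the smoke library (95% counting interval 9.87 to 13.2) and 5.24 times as high in the smoke as in the room air library (3.62 to 7.59). All rule nuclei together gave smaller ratios, 4.00 (3.68 to 4.35) and 1.98 (1.74 to 2.25). Rule nuclei outside the clusters differed least, at 4.85%, 4.03% and 2.51% of nuclei.

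Depth was lowest where the share was highest. After each nucleus was thinned to 1000 UMIs, which left out 1692 aneurysm, 933 smoke and 1036 room air nuclei, adipocyte-like nuclei that still met the rule made up 17.1%, 1.17% and 0.280% of nuclei. All libraries went through bead purification of nuclei and the lowest total of 500 UMIs, and the part of either in these shares was not tested. The median mitochondrial share was 0.291%, 0.125% and 0.416% in the adipocyte-like nuclei. More adipocyte nuclei and fewer nuclei of other cells cannot be told apart in a share.

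**Figure D2:**
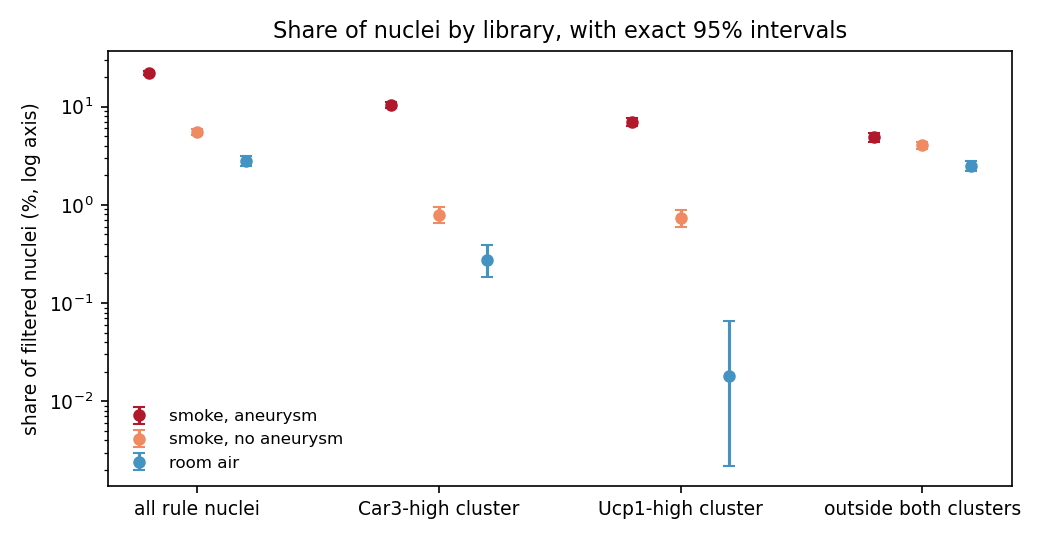
Share of filtered nuclei in percent (vertical log axis) that met the rule, met it and lay in the Car3-high or the Ucp1-high cluster, or met it outside both, with exact 95% intervals, for the aneurysm (red), smoke (orange) and room air (blue) libraries. The Ucp1-high share was 6.99% in the aneurysm library, 0.729% in the smoke library and 0.0181% in the room air library, where it rested on 2 nuclei.

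Both clusters held many adipocyte-like nuclei of the aneurysm and smoke libraries, whereas those of the room air library lay almost all in the Car3-high cluster. The Ucp1-high cluster held 399 of 990 adipocyte-like nuclei in the aneurysm library (40.3%, exact 95% interval 37.2 to 43.4), 102 of 213 in the smoke library (47.9%, 41.0 to 54.8) and 2 of 32 in the room air library (6.25%, 0.766 to 20.8). With nuclei that did not meet the rule included, the Ucp1-high and Car3-high clusters held 606 and 654 aneurysm nuclei. They held 105 and 115 smoke nuclei, and 4 and 35 room air nuclei. In these counts the aneurysm share was not below the smoke share. Since the clusters were built from 2000 variable genes, the split was also read from Ucp1 and Cidea alone. At least 1 UMI of either was found in 498 of 990 aneurysm nuclei (50.3%), 111 of 213 smoke nuclei (52.1%) and 4 of 32 room air nuclei (12.5%, 3.51 to 29.0).

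The share of nuclei with a UMI depends on depth, and the median was 1634.5 UMIs in the aneurysm, 8783 in the smoke and 3475.5 in the room air adipocyte-like nuclei. After thinning to 1000 UMIs the shares were 40.6% of 795 aneurysm nuclei, 31.6% of 212 smoke nuclei and 0 of 31 room air nuclei. That count of 0 allows up to 9.68% of nuclei with a UMI at this depth (3 counts of the total), or 11.2% by the exact upper limit. Macrophage nuclei (396, 5156 and 2968), which should lack both genes unless they also hold adipocyte RNA, gave 5.30%, 1.59% and 0.640% at medians of 1959.5, 9057 and 6878.5 UMIs, and 2.73%, 0.331% and 0.0340% after thinning. The aneurysm library therefore had the highest background and also the highest thinned share. Car3-high nuclei had a UMI of either gene in 26.9% of the aneurysm library's nuclei, 11.7% of the smoke library's and 6.67% of the room air library's, and Ucp1-high nuclei in 85.0% of the aneurysm library's and 96.1% of the smoke library's.

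Ucp1 stood at 796 CPM in Ucp1-high nuclei of the aneurysm library (598 UMIs) and 470 CPM in those of the smoke library (500 UMIs). In Car3-high nuclei it stood at 41.2, 4.77 and 0 CPM in the aneurysm, smoke and room air libraries. Cidea stood at 1033 and 740 CPM in Ucp1-high nuclei, and at 232, 42.9 and 9.70 CPM in Car3-high nuclei. Car3 ran the other way, at 591 and 270 CPM in Ucp1-high nuclei against 4944, 3060 and 3144 CPM in Car3-high nuclei. The clusters were named from their leading genes, Ucp1, Cidea and Car3 among them, so these levels only describe the clusters. Zic1, a transcription factor that marks classical brown fat, had 0 UMIs in the adipocyte-like nuclei of every library. Prdm16, a brown and beige regulator, had 832, 678 and 727 CPM in the aneurysm, smoke and room air libraries. Of the 32 room air nuclei 30 were Car3-high, so Prdm16 was not confined to Ucp1-high nuclei.

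Nuclei with a Ucp1 or Cidea UMI (positive) were set against those without (negative) inside each smoke-exposed library, where both sides share library and handling. Their median depths were 1712.5 and 1572 UMIs in the aneurysm library, and 10272 and 6909 UMIs in the smoke library. With Ucp1 and Cidea left out, 660 of 5617 measured genes (11.8%) were at least 1.5-fold higher and 557 (9.92%) at least 1.5-fold lower in positive nuclei of the aneurysm library. In the smoke library 1034 of 5965 genes (17.3%) were higher and 977 (16.4%) lower. A gene was measured when it had at least 50 UMIs in both sides together. All 18 measured thermogenic genes were higher in positive nuclei of both libraries, with a median log2 ratio of 1.70 in the aneurysm and 2.85 in the smoke library. The split followed the clusters less closely in the shallower aneurysm library, where 339 of 399 Ucp1-high and 159 of 591 Car3-high nuclei were positive. In the smoke library 98 of 102 and 13 of 111 were positive. The part of this in the sizes of the ratios was not tested.

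Among the thermogenic genes, Esrrg (estrogen-related receptor gamma, an activator of mitochondrial genes) had 2201 CPM in positive and 373 CPM in negative aneurysm nuclei, a 5.91-fold difference. In the smoke library it had 1767 CPM in positive and 134 CPM in negative nuclei, a 13.2-fold difference. Ppara, the fatty acid receptor that turns on oxidation genes, was 3.15-fold higher in the aneurysm and 7.09-fold higher in the smoke library. Slc27a2, a very-long-chain acyl-CoA synthetase, was 6.68-fold and 14.4-fold higher. Acot11, a brown fat thioesterase, had 465 CPM in positive nuclei of both libraries and 74.3 and 18.8 CPM in their negative nuclei. Within single clusters of the aneurysm library the median thermogenic log2 ratio of positive over negative nuclei was 0.95 in Car3-high and 0.33 in Ucp1-high nuclei.

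Genes of the respiratory chain and citric acid cycle were higher in positive nuclei, 9 of 15 measured in the aneurysm library (median log2 ratio 0.72) and 13 of 15 in the smoke library (1.15). Of all measured genes, 11.8% were higher in the aneurysm library's positive nuclei and 17.3% in the smoke library's. Sdha, a subunit of succinate dehydrogenase, was 1.64-fold (1.35 to 2.02) and 2.22-fold (1.69 to 2.95) higher. Fgf1, a growth factor of adipose remodelling, was 11.4-fold and 13.1-fold higher. Among the lists lower in positive nuclei was that of glucocorticoid and handling stress genes, with 6 of 12 lower in the aneurysm library (median -0.59) and 10 of 12 in the smoke library (-0.97), and 0 higher in either. Of all measured genes, 9.92% were lower in the aneurysm library and 16.4% in the smoke library. Fos, Jun and Egr1, early-response genes, and Fkbp5, a glucocorticoid target, were lower in both. Retn and Cfd (adipsin, a complement protease) were 2.74-fold and 2.68-fold lower in positive aneurysm nuclei, and 3.43-fold and 3.84-fold lower in positive smoke nuclei. The adipokine list as a whole did not go that way, with medians of 0.02 in the aneurysm and 0.27 in the smoke library. Adra1a, an adrenergic receptor, was 2.71-fold and 3.78-fold higher, whereas the list of signalling receptors had medians of -0.48 and 0.02.

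The largest positive-over-negative bounds, by a rule on the interval nearest to 1, belonged to Septin9, Sorcs2, Myo5b, Impa2, Fgf1 and Esrrg in the aneurysm library and to Odad4, Ppp1r3b, Sorcs2, Acot11, Elovl6 and Cabcoco1 in the smoke library. Sorcs2, a sorting receptor, was named in both, at 257 against 31.3 CPM in the aneurysm and 152 against 3.32 CPM in the smoke library (positive against negative nuclei). The genes lower in positive nuclei by the same rule were Cyp2f2, Heph, Chl1, Aldh1a1, Trabd2b and Glb1l2 in the aneurysm library, and Prr16, Tshr, Gsta3, Pon1, Adcy5 and Abi3bp in the smoke library.

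Fatty acid synthesis genes did not follow the same division in the 2 libraries. In the smoke library 10 of 17 measured synthesis genes were higher and 0 lower in positive nuclei (median log2 ratio 1.15), with Elovl6, which lengthens palmitate, 19.8-fold higher (15.0 to 26.7) and Acly, which makes cytosolic acetyl-CoA from citrate, 5.45-fold higher (4.56 to 6.56). In the aneurysm library 1 of 18 was higher and 5 were lower (median -0.27, and 0.0096 in Car3-high and 0.27 in Ucp1-high nuclei taken alone), with Elovl6 1.76-fold higher (1.65 to 1.88) and Acly at 2352 CPM in positive and 2757 CPM in negative nuclei. Of all measured genes, 11.8% were higher and 9.92% lower in the aneurysm library, and 17.3% and 16.4% in the smoke library.

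**Figure D3:**
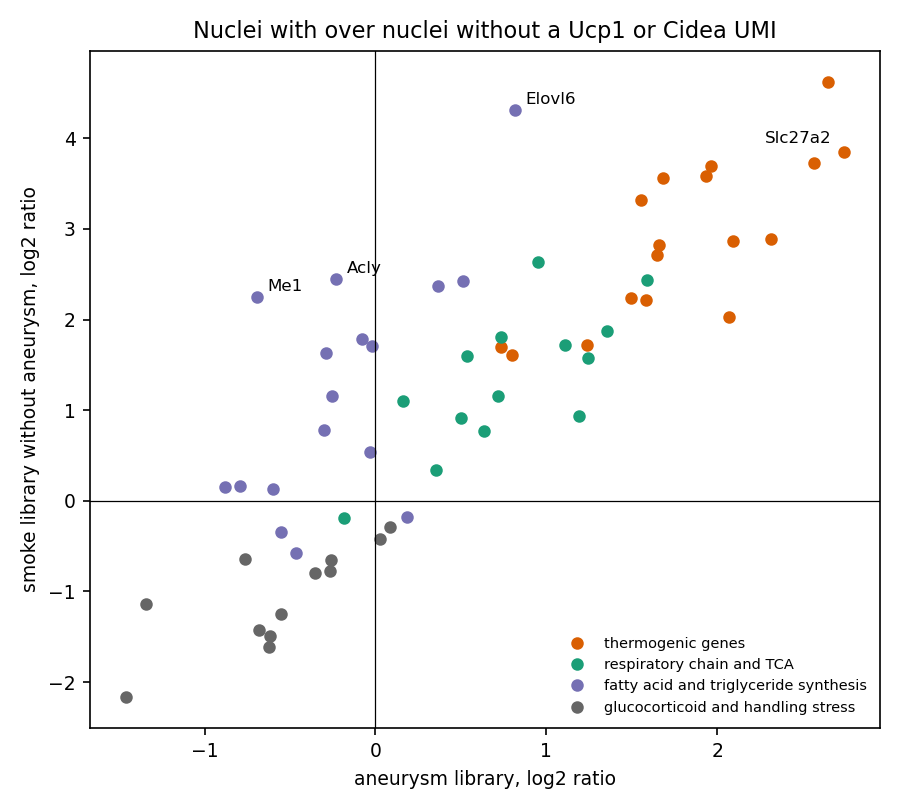
Log2 ratio of positive over negative adipocyte-like nuclei in the aneurysm library (horizontal axis) and in the smoke library (vertical axis), each point a gene of the list given by its colour, without Ucp1 and Cidea. Thermogenic genes lie to the upper right and stress genes mostly to the lower left, while synthesis genes lie along the vertical direction, such as Me1 at -0.69 in the aneurysm and 2.25 in the smoke library.

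Of the 15 gene lists, that of fatty acid and triglyceride synthesis had the highest median ratio of the aneurysm over the smoke library in both Car3-high and Ucp1-high nuclei, and the larger ratios were in Car3-high nuclei. Summed over the 19 genes of the list, the level in Car3-high nuclei was 39396 CPM in the aneurysm library, 8833 CPM in the smoke library and 8921 CPM in the room air library. In Ucp1-high nuclei the sum was 28163 CPM in the aneurysm and 18660 CPM in the smoke library. In this sum the smoke and room air Car3-high nuclei were close to each other and the aneurysm library stood apart. Single genes differed between smoke and room air in both directions, as with Acly (197 and 58.2 CPM) and Pck1 (828 and 1596 CPM). The room air values rest on 30 nuclei. In macrophage nuclei, which here measure RNA carried over from other cells together with the macrophages' own, the sum was 1546, 510 and 450 CPM.

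Counted nucleus by nucleus at 1000 UMIs, the difference ran through nearly the whole Car3-high population. The median Car3-high nucleus held 38 synthesis UMIs in the aneurysm library (511 nuclei, 10th to 90th percentile 20 to 60), 8 in the smoke library (110 nuclei, 2 to 16.1) and 7 in the room air library (29 nuclei, 1 to 16.8). The 10th percentile of the aneurysm library thus lay above the 90th percentile of both others. The median Ucp1-high nucleus held 27 in the aneurysm library (13.3 to 41.7) and 17 in the smoke library (5.1 to 39), which overlapped widely. The median macrophage nucleus held 1, 0 and 0 in the aneurysm, smoke and room air libraries.

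**Figure D4:**
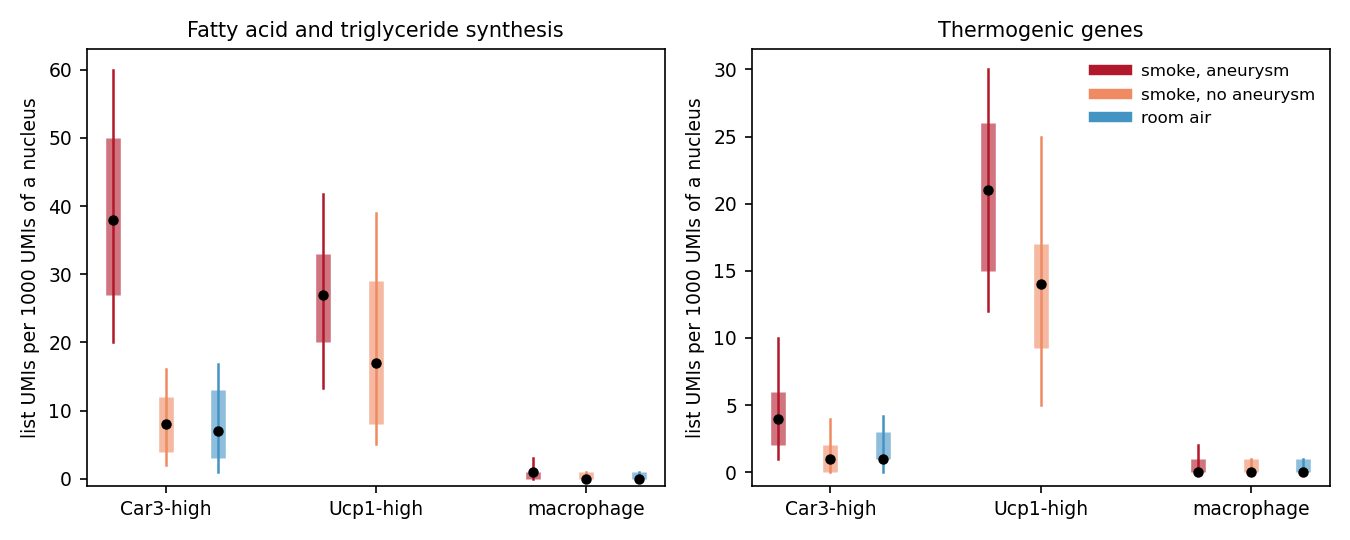
UMIs of the synthesis list (left) and of the thermogenic list (right) in each nucleus after thinning to 1000 UMIs, with the median (black point), the quartiles (wide bar) and the 10th to 90th percentile (line), for Car3-high, Ucp1-high and macrophage nuclei of the aneurysm (red), smoke (orange) and room air (blue) libraries; the 2 room air Ucp1-high nuclei are not drawn. Car3-high nuclei of the aneurysm library had a median of 38 synthesis UMIs, against 8 in the smoke and 7 in the room air library.

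Over Car3-high nuclei of the smoke library, those of the aneurysm library had 1129 of 6186 measured genes (18.3%) at least 1.5-fold higher and 1573 (25.4%) at least 1.5-fold lower, with a median log2 ratio of -0.03 over all genes. In the synthesis list 17 of 18 measured genes were higher and 0 lower, with a median of 2.30. Elovl6 had 1450, 70.5 and 34.0 CPM in Car3-high nuclei of the aneurysm, smoke and room air libraries, a 20.6-fold aneurysm-over-smoke ratio (16.3 to 26.3). Me1, the malic enzyme that supplies NADPH, had 3701, 231 and 209 CPM, a ratio of 16.0 (14.1 to 18.3). Acly had 3119, 197 and 58.2 CPM, a ratio of 15.8 (13.7 to 18.3).

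Fasn, the fatty acid synthase, had 1710, 244 and 194 CPM in Car3-high nuclei of the aneurysm, smoke and room air libraries, and the aneurysm-over-smoke ratio was 7.01 (6.16 to 8.00). Acaca, which makes malonyl-CoA, had 14458, 2278 and 1567 CPM, a ratio of 6.35 (6.08 to 6.62). Scd1, the desaturase that makes oleate, had 4007, 2212 and 2314 CPM and a smaller ratio of 1.81 (1.73 to 1.90). Pck1, which feeds glycerol synthesis, was the measured gene of the list that was not higher, at 697, 828 and 1596 CPM. Among steps that join fatty acids to glycerol, Gpam had a ratio of 5.96 (5.30 to 6.71), Agpat2 of 4.67, Lpin1 of 3.18 and Dgat2 of 2.19. Mogat2 was not measured, with 5 aneurysm and 0 smoke UMIs in all adipocyte-like nuclei.

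The share of Car3-high nuclei with a UMI also stood apart in the aneurysm library. After thinning to 1000 UMIs, Acly was found in 78.9% of Car3-high nuclei in the aneurysm library (75.1 to 82.3), 11.8% in the smoke library (6.45 to 19.4) and 6.90% in the room air library (0.846 to 22.8), against 6.97%, 3.21% and 3.19% of macrophage nuclei. Without thinning the Car3-high shares were 85.8%, 37.8% and 23.3%, although the aneurysm nuclei were the shallower at a median of 1808 UMIs against 7424 and 3475.5. Me1 was found in 80.6%, 20.9% and 13.8% of thinned Car3-high nuclei, and in 6.06%, 0.642% and 0.679% of macrophage nuclei.

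Of 14 measured genes of the adipogenic regulator list, 5 were higher and 2 lower in Car3-high nuclei of the aneurysm over the smoke library (median log2 ratio 0.31), against 18.3% and 25.4% of all measured genes. The higher ones were Nr3c1 and 4 genes described here. Mlxipl, the carbohydrate-response factor ChREBP, had 1235, 210 and 160 CPM in the aneurysm, smoke and room air libraries (aneurysm over smoke 5.89, 5.12 to 6.81). Srebf1, the sterol-response factor that acts on Fasn, had 675, 299 and 218 CPM (2.25, 1.98 to 2.57), and Nr1h3, the liver X receptor alpha, had 84.4, 42.9 and 34.0 CPM (1.97, 1.39 to 2.83). Klf15, a glucocorticoid-induced factor, had 50.8, 20.0 and 38.8 CPM. The lower ones were Cebpb, an early adipogenic factor, with 39.1, 73.4 and 102 CPM, and Zbtb16, a glucocorticoid-induced repressor, with 292, 683 and 1116 CPM. Of the insulin and glucose list, 5 of 17 genes were higher and 1 lower in the same comparison, the higher ones including Slc2a4, the insulin-responsive glucose transporter, with 90.6, 29.5 and 9.70 CPM (3.07, 2.06 to 4.69), and Irs1, with a ratio of 1.84. Grb14, an inhibitor of the insulin receptor, was the lower one, at 26.1, 58.1 and 131 CPM.

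In Ucp1-high nuclei the same comparison gave 668 of 5308 genes (12.6%) at least 1.5-fold higher in the aneurysm library and 1165 (21.9%) at least 1.5-fold lower. Of 17 synthesis genes 10 were higher and 0 lower, with a median log2 ratio of 0.66. Fasn had 1143 CPM in the aneurysm and 506 CPM in the smoke library (2.26, 2.02 to 2.52), Elovl6 had 2829 and 1276 CPM (2.22, 2.07 to 2.37), and Acly had 1416 and 880 CPM (1.61, 1.47 to 1.76). Me1 stood at 829 CPM in the aneurysm and 990 CPM in the smoke library.

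The upstream 250 bases of 4 genes on which these results turn are shown, Fasn and Elovl6 for synthesis and Ucp1 and Dio2 for heat production, all of them higher in the aneurysm than in the smoke library in Ucp1-high nuclei. They are RefSeq sequences of build GRCm38.p6, given 5′ to 3′ on the gene's strand and ending at the base before the annotated start. Capitals mark 3 short motifs searched on both strands, the nuclear receptor half-site AGGTCA, the E-box CACGTG and the CCAAT box CCAAT. Fasn lies at chr11:120824548-120824797 (minus strand), Elovl6 at chr3:129532136-129532385 (plus), Ucp1 at chr8:83290098-83290347 (plus) and Dio2 at chr12:90739039-90739288 (minus).
Fasn: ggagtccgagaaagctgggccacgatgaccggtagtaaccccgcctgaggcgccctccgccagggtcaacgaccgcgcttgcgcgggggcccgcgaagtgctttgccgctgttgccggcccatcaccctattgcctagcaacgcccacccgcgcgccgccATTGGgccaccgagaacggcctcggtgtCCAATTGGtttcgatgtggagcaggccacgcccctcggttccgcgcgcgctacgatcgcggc
Elovl6: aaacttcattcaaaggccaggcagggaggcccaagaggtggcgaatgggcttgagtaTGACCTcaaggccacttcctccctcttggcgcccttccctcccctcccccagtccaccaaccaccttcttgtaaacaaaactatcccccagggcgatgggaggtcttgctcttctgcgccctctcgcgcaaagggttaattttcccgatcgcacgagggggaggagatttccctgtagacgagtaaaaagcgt
Ucp1: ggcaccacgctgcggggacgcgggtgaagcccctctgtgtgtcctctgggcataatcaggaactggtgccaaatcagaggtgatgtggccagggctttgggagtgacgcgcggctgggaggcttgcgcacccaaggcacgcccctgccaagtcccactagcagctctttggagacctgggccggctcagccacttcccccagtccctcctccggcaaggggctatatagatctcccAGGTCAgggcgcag
Dio2: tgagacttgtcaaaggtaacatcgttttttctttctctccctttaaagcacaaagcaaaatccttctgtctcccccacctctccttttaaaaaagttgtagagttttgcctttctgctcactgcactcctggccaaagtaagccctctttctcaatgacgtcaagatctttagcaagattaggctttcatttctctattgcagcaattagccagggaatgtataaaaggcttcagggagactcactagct
Fasn held 3 CCAAT boxes, whose first bases lay 90, 62 and 59 bases before the start, the last 2 overlapping on opposite strands. Ucp1 held a half-site whose first base lay 14 bases before the start, Elovl6 held one at 193 bases on the opposite strand, and Dio2 held none of the 3 motifs. Over all 32851 promoter windows of this length, 14% held the half-site, 6.02% the E-box and 33.8% the CCAAT box. Of 17 windows of synthesis genes, 4 held the half-site, 3 the E-box and 7 the CCAAT box, and of 24 windows of thermogenic genes the counts were 3, 3 and 9. These are matches of letters only.

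In Car3-high nuclei 17 of 17 measured thermogenic genes were higher in the aneurysm than in the smoke library, with a median log2 ratio of 1.78. Of all measured genes in Car3-high nuclei, 18.3% were higher and 25.4% lower. In Ucp1-high nuclei 10 of 21 thermogenic genes were higher, 0 were lower and 11 stayed within 1.5-fold, with a median of 0.48. Of all measured genes in Ucp1-high nuclei, 12.6% were higher and 21.9% lower. Over both clusters together 7 of 21 thermogenic genes were higher and 1, Otop1, was lower, against 13.5% and 24.3% of all measured genes. The thermogenic median was 0.32, and it stood at 0.04 when at least 3 rule genes, 2 of them defining, were required. Ucp1 and Cidea were among the genes higher in Car3-high nuclei, and the levels of both in macrophage nuclei, 11.9 and 18.8 CPM in the aneurysm library against 1.77 and 2.56 CPM in the smoke library, differed in the same direction. The part of RNA carried over from other nuclei in the Car3-high values was not tested. The sum of the thermogenic list was 4548, 1680 and 2101 CPM in Car3-high nuclei of the aneurysm, smoke and room air libraries, and 742, 487 and 454 CPM in macrophage nuclei.

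Dio2, the deiodinase that makes active thyroid hormone inside brown fat cells, had the highest ratio of the measured thermogenic genes in Ucp1-high nuclei. There it had 1051 CPM in the aneurysm library (790 UMIs) and 42.3 CPM in the smoke library (45 UMIs), a ratio of 24.9 (18.4 to 34.4). In Car3-high nuclei it had 294, 37.2 and 38.8 CPM in the aneurysm, smoke and room air libraries, and in macrophage nuclei 25.7, 3.53 and 10.6 CPM. After thinning, 52.5% of Ucp1-high aneurysm nuclei had a Dio2 UMI (46.5 to 58.4), against 4.90% of Ucp1-high smoke nuclei (1.61 to 11.1). Elovl3, an elongase induced in active brown fat, had 121 CPM in Ucp1-high aneurysm nuclei and 16.0 CPM in Ucp1-high smoke nuclei (7.58, 4.48 to 13.6). In Car3-high nuclei it had 63 UMIs in the aneurysm and 0 in the smoke library, at least 15.1-fold higher against a floor of 3 counts.

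Other heat-production genes differed less in Ucp1-high nuclei. Slc27a2 had 218 CPM in the aneurysm and 115 CPM in the smoke library (1.90-fold), Ucp1 had a ratio of 1.69, and Ppargc1a, the coactivator of mitochondrial biogenesis, one of 1.68 (1.51 to 1.88). Cidea, at 1.40 (1.26 to 1.54), and Prdm16, at 1.27 (1.17 to 1.39), stayed under 1.5-fold. Respiratory chain and citric acid cycle genes were higher in 2 of 15 cases in Ucp1-high nuclei (median 0.30), close to the 12.6% of all measured genes there, and in 13 of 15 in Car3-high nuclei (median 1.12), where 18.3% of all measured genes were higher.

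**Figure D5:**
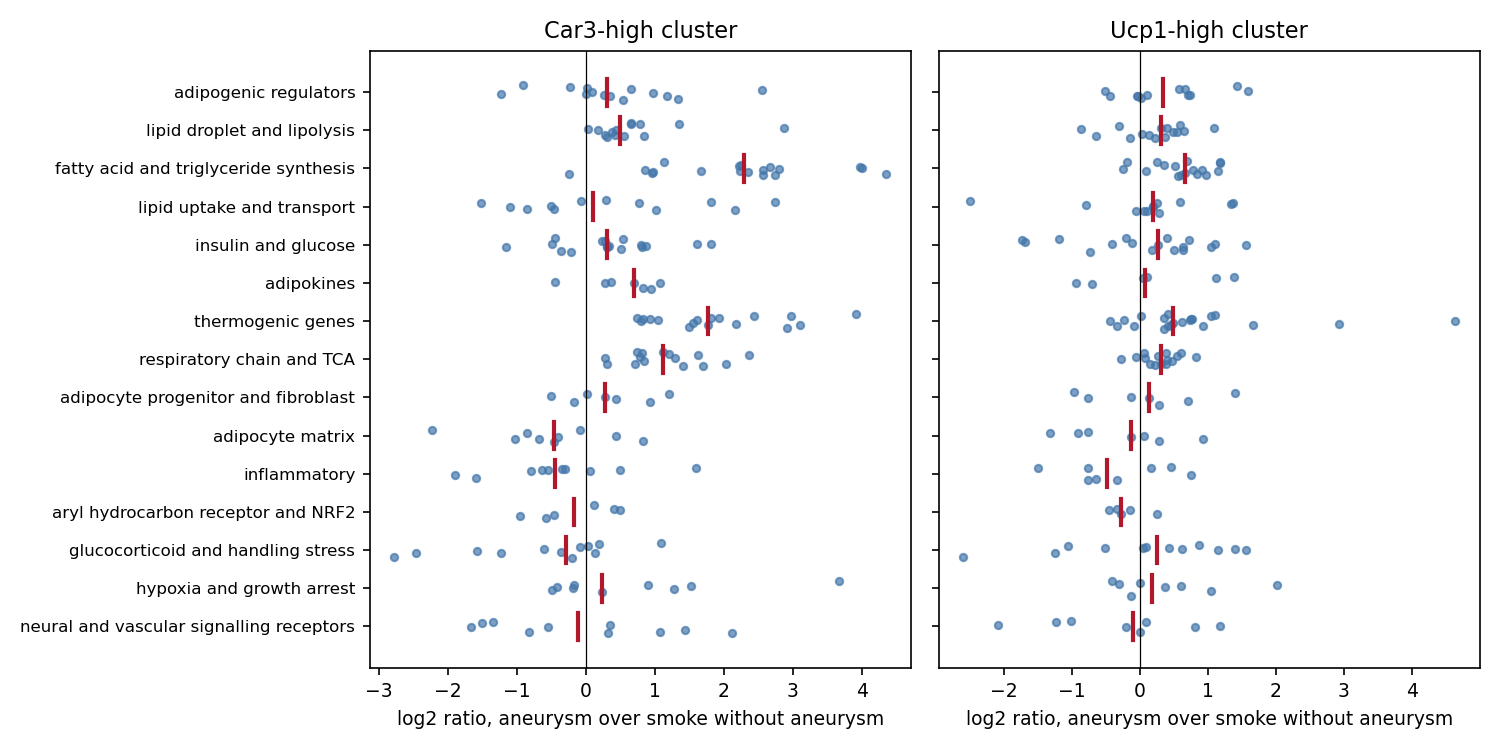
Log2 ratio of the aneurysm over the smoke library for each measured gene (points) of the 15 gene lists, with the list median (red line), in Car3-high (left) and Ucp1-high (right) nuclei. The synthesis list has a median of 2.30 in Car3-high and 0.66 in Ucp1-high nuclei, and the inflammatory list one of -0.44 and -0.49.

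Genes of the lipid droplet and lipolysis differed less. In Car3-high nuclei 6 of 14 were higher in the aneurysm library and 0 lower (median log2 ratio 0.50), and in Ucp1-high nuclei 3 of 15 were higher and 2 lower (0.31). Of all measured genes 18.3% were higher and 25.4% lower in Car3-high nuclei, and 12.6% and 21.9% in Ucp1-high nuclei, so the share of lipid droplet genes that were higher in Ucp1-high nuclei was near that of all genes. Pnpla3, a triglyceride lipase induced by feeding, had 897, 353 and 1024 CPM in Car3-high nuclei of the aneurysm, smoke and room air libraries, and 559 CPM in the aneurysm and 1020 CPM in the smoke library in Ucp1-high nuclei, so its direction differed between the clusters. Pnpla2, the main triglyceride lipase of fat, had a ratio of 1.22 (0.914 to 1.63) in Car3-high nuclei. Adrb3, the adrenergic receptor that starts lipolysis, had 316, 176 and 340 CPM there. Lpl, lipoprotein lipase, was higher in the aneurysm library in both clusters, 1.71-fold (1.62 to 1.81) in Car3-high and 2.57-fold (2.37 to 2.79) in Ucp1-high nuclei. Macrophage nuclei also express Lpl, at 364, 709 and 650 CPM in the aneurysm, smoke and room air libraries, so there the aneurysm library was the lower. Cd36, a fatty acid transporter, had ratios of 1.23 and 1.21.

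Of the adipokine genes measured in Car3-high nuclei 4 of 7 were higher in the aneurysm library and 0 lower (median 0.71), against 18.3% and 25.4% of all measured genes. In Ucp1-high nuclei 2 of 6 were higher and 2 lower (0.07), against 12.6% and 21.9%. Retn had 203, 96.3 and 72.8 CPM in Car3-high nuclei of the aneurysm, smoke and room air libraries (aneurysm over smoke 2.11, 1.68 to 2.67). Lep (leptin) had 35, 13 and 9 UMIs in Car3-high nuclei, or 24.0, 12.4 and 43.7 CPM, too few to be measured there. Cfd had 139, 189 and 277 CPM. Vegfa, an endothelial growth factor, was higher in the aneurysm library in both clusters, 1.63-fold (1.48 to 1.80) and 2.62-fold (2.37 to 2.89). Nrg4, a factor secreted by brown fat, had 1163 CPM in the aneurysm and 1895 CPM in the smoke library in Ucp1-high nuclei.

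Inflammatory genes had a lower median ratio of the aneurysm over the smoke library than all genes, while their counts were not far from the shares of all genes. Matrix genes leaned lower in the aneurysm library by gene counts and list median, but not by list sum or at equal depth. Over both clusters together, 1084 of 8025 measured genes (13.5%) were at least 1.5-fold higher in the aneurysm than in the smoke library and 1953 (24.3%) at least 1.5-fold lower, with a median log2 ratio of -0.10. Ucp1-high nuclei gave 751550 of the 2208902 UMIs in the aneurysm library and 1064186 of 2113374 in the smoke library. The part of this unequal mix in ratios over both clusters, here and below, was not tested. Of 11 matrix genes 0 were higher and 6 lower, with a median of -0.65, among them Sparc with 40.3, 79.0 and 109 CPM and Nid1, nidogen, with 17.7, 36.9 and 47.2 CPM in the aneurysm, smoke and room air libraries. With every nucleus thinned to 1000 UMIs the matrix median was 0.18, so this direction did not hold at equal depth. The matrix list summed to 1920 CPM in the aneurysm and 1804 CPM in the smoke library, so its sum ran the other way. Of 11 inflammatory genes 2 were higher and 4 lower, not far from the 13.5% and 24.3% of all measured genes, with a median of -0.40. Macrophage markers in the same nuclei summed to 187 CPM in the aneurysm and 489 CPM in the smoke library, and their part in the inflammatory values was not tested. Nfkbiz, a nuclear member of the IkappaB family, had 143, 332 and 279 CPM (smoke over aneurysm 2.32, 2.03 to 2.66), and Tlr4, the endotoxin receptor, 43.0, 65.3 and 89.7 CPM. C3, the complement component, was higher, with 129, 51.6 and 33.1 CPM (2.51, 2.01 to 3.16). Il6 had 0 UMIs in the adipocyte-like nuclei of all 3 libraries and Ccl2 had 5, 7 and 1.

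Genes known to be induced by smoke constituents were read in the same nuclei. Cyp1a1, the classical target of the aryl hydrocarbon receptor, had 0 UMIs in adipocyte-like nuclei of every library, and the receptor's other targets Ahrr and Nqo1 had at most 2. The aryl hydrocarbon receptor and NRF2 list summed to 589, 747 and 690 CPM in the aneurysm, smoke and room air libraries, the last from 32 nuclei. The aneurysm and smoke libraries were both exposed to smoke, so their ratio cannot show an effect of exposure. Of 9 measured genes of this list, 1 was higher and 2 lower in the aneurysm than in the smoke library (median -0.35), near the 13.5% and 24.3% of all measured genes. Handling stress genes, which include glucocorticoid targets and early-response genes, had 1 of 12 higher and 4 lower (median 0.15, and -0.28 in Car3-high and 0.26 in Ucp1-high nuclei taken alone). Among signalling receptors 4 of 11 were higher and 5 lower, including Egfr with 146, 440 and 345 CPM (smoke over aneurysm 3.01, 2.65 to 3.43) and Npr3, the natriuretic peptide clearance receptor, with 40.3, 124 and 368 CPM.

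By the rule on the interval bound nearest to 1, the genes highest in the aneurysm over the smoke library were Dio2, Nabp1, Elovl3, Accsl, Dmrt2, Ppp4c, Peg3 and Acly. Nabp1, a single-strand DNA binding protein, had 1068 CPM in the aneurysm and 150 CPM in the smoke library (7.10, 6.31 to 8.01), and it was higher in Car3-high (10.2-fold) and in Ucp1-high nuclei (3.07-fold). Ppp4c, a phosphatase subunit, had 243 CPM in the aneurysm and 41.6 CPM in the smoke library (5.84, 4.65 to 7.40), and Peg3, an imprinted gene, 113 and 17.5 CPM (6.44, 4.55 to 9.36). Dmrt2 rested on 50 UMIs in the aneurysm and 3 in the smoke library (15.9, 5.15 to 79.9).

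The genes lowest in the aneurysm library by the same rule included Sdk1, Card14, Svep1, Grb14, Egfr, Kctd1 and Cdh9. Sdk1, a cell adhesion molecule, had 37.6 CPM in the aneurysm and 308 CPM in the smoke library (smoke over aneurysm 8.20, 6.52 to 10.4), and was lower in both clusters. Svep1, an adhesion protein of the extracellular matrix, had 310 and 1082 CPM (3.49, 3.21 to 3.81), with most of the difference in Ucp1-high nuclei, where it had 220 and 1590 CPM. Cdh9 was lower over both clusters together and not in Car3-high nuclei alone, where its log2 ratio was 0.53.

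Comparisons of all rule nuclei, which include those outside the adipocyte clusters, were made on mixtures whose adipocyte-like share was 78.1% in the aneurysm library, 27.4% in the smoke library and 10.4% in the room air library. Between the smoke and room air libraries 1688 of 11627 genes (14.5%) were at least 1.5-fold higher in smoke and 347 (2.98%) at least 1.5-fold lower. There 18 of 20 thermogenic genes were higher in smoke (median 1.61) and 15 of 17 synthesis genes (1.54), led by Esrrg, with 2279 UMIs in the smoke and 20 in the room air library, Ucp1 (511 and 2) and Cidea (843 and 6). The lower genes by rule were Bcat1, Pla1a, Tenm3, Eya2, Mmp13, Cxcl1, Tgfb3 and Sytl5. The log2 ratio of Mmp13, a collagenase, was -1.39 and stood at 1.89 without the nuclei carrying another class.

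Between the aneurysm and smoke libraries 2351 of 11767 genes (20.0%) were higher in aneurysm rule nuclei and 3128 (26.6%) lower, with 18 of 18 synthesis genes higher (median 2.75). Between the aneurysm and room air libraries 2382 of 9357 genes (25.5%) were higher and 2060 (22.0%) lower, with 18 of 18 synthesis genes higher (median 4.31). These comparisons share libraries, and the adipocyte share of rule nuclei and expression within adipocytes cannot be told apart in them.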

How the data were processed

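Single-nucleus RNA was counted in 3 libraries, 1 for each group. The deposited files hold whole-number UMI counts for each gene and barcode, made by the authors with Cell Ranger on build mm10. The version is 2.2.0 per the submitters' processing notes, which also name STAR, and 8.0.1 per the file headers. Counts were summed over nuclei of a class within a library and given as CPM. Ratios carry exact conditional binomial intervals, and shares exact (Clopper-Pearson) intervals, both at 95% and covering counting error only.

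All filtered nuclei were clustered with scanpy 1.11.5 (2000 variable genes, 30 principal components, 20 neighbours, Leiden resolution 1) in Python 3.11.15 with numpy 2.4.6, scipy 1.17.1 and pandas 2.3.3. Figures used matplotlib 3.10.9. A gene counted as higher or lower past 1.5-fold, with at least 50 UMIs in both sides together. The ratio script was tested on simulated data. Named genes were ranked by the interval bound nearest to 1, up to 8 a direction between libraries and 6 between positive and negative nuclei, with at least 30 UMIs in at least 10 nuclei. List members were named as well. Some genes that the rule names are not reported here.

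The members and gene lists were chosen with earlier results of these data known. The restriction to adipocyte clusters, and each cluster alone, were chosen after seeing the data. No doublet caller was run. Alternatives covered stricter membership, depth, the mitochondrial limit, thinning to 1000 UMIs, the UMI minimum for a gene and the fold.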

Additional observations from a re-analysis of the deposited data

Results flagged for a closer look

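Me1 and Acsl4 stood in opposite directions in the aneurysm and smoke libraries when nuclei with a Ucp1 or Cidea UMI were set against those without. Me1, the malic enzyme, had a log2 ratio of positive over negative nuclei of -0.69 in the aneurysm library (2514 and 3502 UMIs) and 2.25 in the smoke library (1120 and 176 UMIs). Acsl4, an acyl-CoA synthetase that prefers arachidonate, had 0.62 in the aneurysm library (100 and 56 UMIs) and -1.02 in the smoke library (68 and 103 UMIs). With 1 library for each group, the difference was not tested for either gene.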

How the results depend on the processing

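With 1 library for each group, no replicate could be left out, and the depth of the aneurysm library and the 32 adipocyte-like nuclei of the room air library limit what can be compared. No paired analysis was possible because each group has a single library. Of the list medians under the alternatives, 844 stayed within the 95% order-statistic interval of the reported median over the list's genes (for lists of under 6 genes, their range), 82 lay outside it and 10 reversed. Of the values for named genes, 661 stayed within the 95% counting interval of the reported ratio, 154 lay outside it and 2 reversed. Over the alternatives for adipocyte-like nuclei the aneurysm-over-smoke median lay between 0.66 and 2.30 for synthesis genes, 0.04 and 1.78 for thermogenic genes, and -0.54 and -0.28 for inflammatory genes. Causes of the changes below were not tested.

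Ratios of the share of rule nuclei (aneurysm over smoke, smoke over room air, aneurysm over room air) were 7.33, 5.48 and 40.2 with at least 3 rule genes of which 2 defining, 8.35, 3.22 and 26.9 without nuclei carrying another class, 13.1, 2.91 and 38.0 in the Car3-high cluster, and 11.6, 2.61 and 30.3 after thinning. The aneurysm-over-smoke ratio was 4.42 with at least 1000 UMIs and 3.66 with no mitochondrial limit. For adipocyte-like nuclei it was 7.90 under the stricter rule and 14.6 after thinning. The Ucp1 or Cidea share of rule nuclei (aneurysm, smoke, room air) was 44.1%, 47.9% and 6.67% under the stricter rule, 46.5%, 36.2% and 3.90% without nuclei carrying another class, 26.9%, 11.7% and 6.67% in the Car3-high cluster, and 35.8%, 22.8% and 0% after thinning. Of adipocyte-like nuclei it was 44.6% in the aneurysm library under the stricter rule, and 40.1%, 31.4% and 0% after thinning with the rule applied again.

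Counts of genes past the fold in rule nuclei are given as higher and lower. Under the stricter rule 1081 were higher in the aneurysm over the smoke library, and positive over negative nuclei gave 545 and 485 in the aneurysm and 1127 and 1204 in the smoke library. Without nuclei carrying another class 600 were lower in smoke than in room air, and positive over negative gave 659 and 862, and 1615 and 1482. In the Car3-high cluster aneurysm over smoke gave 1129 and 1573, and positive over negative 246 and 294 in the aneurysm library. After thinning, aneurysm over smoke gave 663 and 676, smoke over room air 253 and 177, aneurysm over room air 1031 and 704, and positive over negative 345 and 484 in the aneurysm library. With a minimum of 20 UMIs smoke over room air gave 2616 and 657, and 2640 were lower in positive aneurysm nuclei. With 100 UMIs these were 1113 and 217, and 1074. At 2-fold, aneurysm over smoke gave 1235 and 1798, smoke over room air 657 and 81, aneurysm over room air 1460 and 1111, positive over negative 467 and 968 in the aneurysm library, and 1491 higher in the smoke library.

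In adipocyte-like nuclei, aneurysm over smoke gave 579 higher and 481 lower after thinning, 389 and 1022 at 2-fold, 668 and 1165 in the Ucp1-high cluster, and 1260 lower with 100 UMIs. Positive over negative in the aneurysm library gave 281 and 342 after thinning, 1273 and 1045 with 20 UMIs, 371 and 324 with 100 UMIs, 224 and 169 at 2-fold, and 246 and 294 in the Car3-high cluster. In the smoke library it gave 1720 and 1590 with 20 UMIs, 638 and 625 with 100 UMIs, and 525 and 407 at 2-fold.

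Medians of rule nuclei that reversed, positive over negative, were those of synthesis genes in the aneurysm library, at -0.15 under the stricter rule, -0.037 without nuclei carrying another class and -0.031 after thinning. Matrix genes there reversed to 0.20 under the stricter rule and 0.38 after thinning, and adipokines to -0.15 and progenitor genes to 0.33 in the Car3-high cluster. Lipid uptake genes in the smoke library reversed to -0.32 under the stricter rule. Between the aneurysm and smoke libraries, progenitor genes reversed to 0.28 in the Car3-high cluster, and matrix genes of adipocyte-like nuclei to 0.18 after thinning. Mmp13 reversed to 1.89 (smoke over room air) without nuclei carrying another class, and Cdh9 to 0.53 (aneurysm over smoke) in the Car3-high cluster.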
